A study of Mus musculus with 8 samples.

Results

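Heme breakdown and iron handling was followed through 10 genes: the heme oxygenases Hmox1 and Hmox2, the biliverdin reductases Blvra and Blvrb, the ferritin chains Fth1 and Ftl1, the iron exporter Slc40a1, the transferrin receptor Tfrc, and the heme synthesis enzymes Alas1 and Fech. They were taken as a list of named genes, with earlier results of these data known. All 10 had a named probe that was well above background on all 8 arrays, so all 10 were tested, among 13570 named genes tested in kidney. The study asked what constitutive activity of Nrf2, a transcription factor of the antioxidant response, does to the kidney. Kidney RNA of 4 NEKO mice (Keap1-/-::Nrf2Flox/Flox::K5-Cre) and 4 control mice was hybridised to Agilent 1-colour arrays. The controls were 1 K1 female, mouse 1 (Keap1+/-::Nrf2Flox/Flox, without Cre) and 3 K1Cre mice (Keap1+/-::Nrf2Flox/Flox::K5-Cre). All 8 mice thus shared the floxed Nrf2 alleles and lacked at least 1 copy of Keap1, which encodes the protein that keeps Nrf2 low. K5-Cre is active in squamous epithelium, so that Nrf2 is deleted there and not in the kidney at large. The mice were 8 weeks old, were of a mixed 129Sv/J and C57BL/6J background, and comprised 2 females and 2 males in each group. The paper used littermates as controls of NEKO mice, and the litter of each mouse is not given in the sources used here. The controls lacked 1 Keap1 copy and were not wild type. Mice are named below by the number in their labels.

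Heme oxygenase opens the heme ring and releases iron, carbon monoxide and biliverdin, which biliverdin reductase turns into bilirubin. The iron set free is stored in ferritin or leaves the cell through ferroportin, the product of Slc40a1, while iron bound to transferrin enters through the transferrin receptor. Iron regulatory proteins adjust ferritin and transferrin receptor synthesis to the iron in the cell, and Nrf2 is known to act on several genes of heme breakdown, iron storage and iron export. In the kidney, tubule cells take up filtered iron and heme, and interstitial cells make erythropoietin.

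Levels are given as log2 of the processed spot signal minus the 75th percentile of the array, so that a difference of 1 is a doubling. A level describes 1 probe, and levels of different genes are not set against each other. A gene was called when its adjusted p was under 0.05 in a limma model of genotype that also held sex. Between 61.8% and 65.7% of the probes of each array were well above background, and no probe was saturated. Keap1 itself fell by 1.63 on the log2 scale (SE 0.10, adjusted p = 0.00458 in limma), with every NEKO mouse below every control. Whether its probe lies inside the deleted part is not given in the sources used here. Of 5 Nrf2 target genes taken as a check of pathway activity, Txnrd1 was called (log2 change 1.30, adjusted p = 0.0486 in limma), a call that was lost under 14 of 21 other settings. The other 4, Nqo1, Srxn1, Gclc and Gclm, had fitted changes of 2.62, 1.47, 0.95 and 0.57, with limma adjusted p of 0.0651, 0.0814, 0.246 and 0.109. The females shared 1 slide and the males another, each with 2 mice of either group, and an effect of sex cannot be told apart from one of the slide. Each sample is a separate mouse.

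Transferrin receptor was the 1 gene of the 10 that was called. Tfrc was 3.18-fold higher in NEKO kidneys, a log2 change of 1.67 (95% interval 1.36 to 1.98), and the change was 1.56 within females and 1.78 within males. Slc40a1 and Blvrb were also above every control in all 4 NEKO mice, with fitted changes of 0.91 and 2.00 that did not pass the adjusted threshold. The change of Blvrb was 0.86 in females and 3.14 in males. The other 7 genes, with Hmox1 and both ferritin chains among them, had fitted log2 changes between -0.12 and 0.34, and their groups overlapped. Thus 1 of the 10 genes was called higher, against 0.111% of all named genes tested, and none was called lower, against 0.169%. At an unadjusted p under 0.05 in limma, 3 of the 10 were higher, against 8.14% of all named genes, and 0 were lower, against 10.2%. The groups did not overlap for 3 genes, all higher, where 4.49% of all named genes lay wholly higher, 5.09% wholly lower and 9.58% either way in NEKO mice. The median log2 change of the 10 genes was 0.14, beside -0.02 for all named genes tested.

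**Figure D1:**
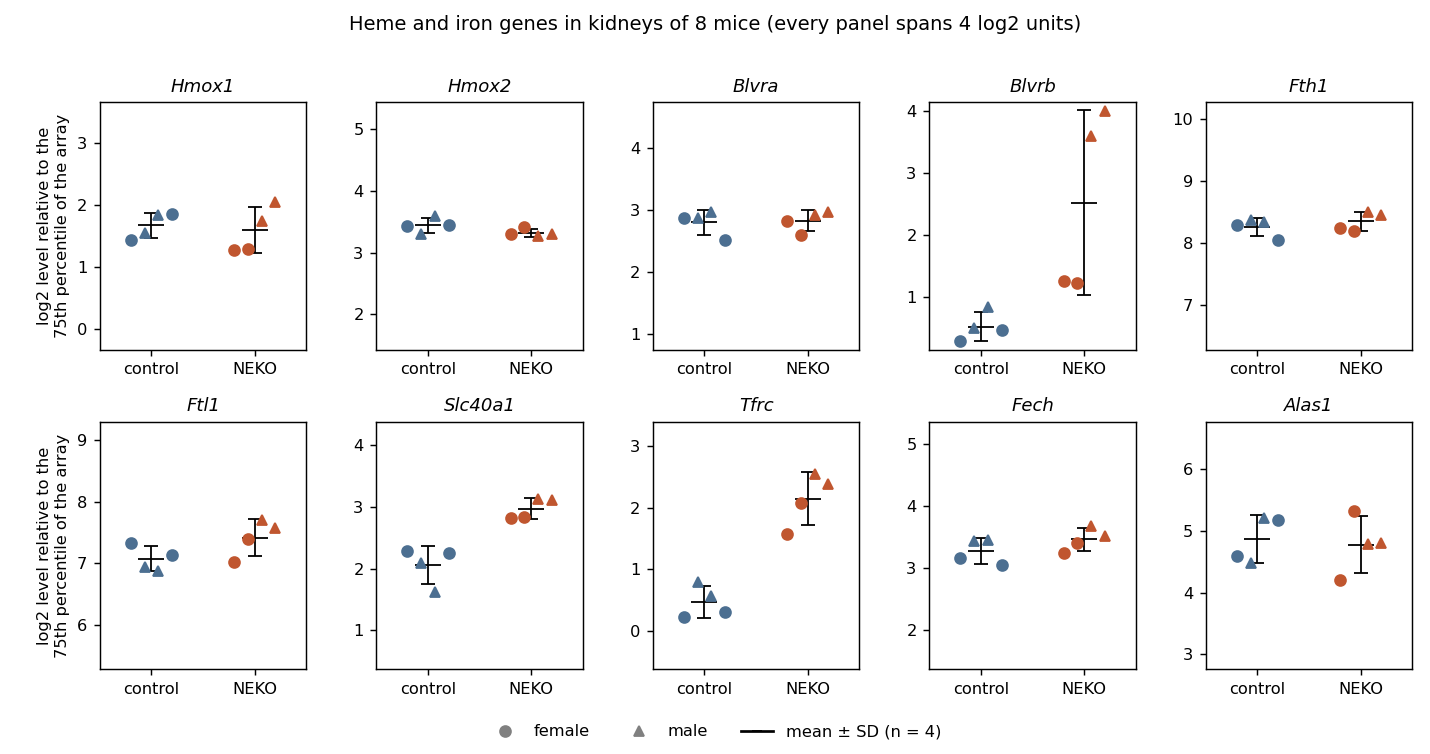
Log2 level of each of the 10 genes in the 8 kidneys, scaled to each array's 75th percentile, with controls in blue, NEKO in orange, females as circles, males as triangles, and the mean ± SD (n = 4) as a bar. Tfrc, Slc40a1 and Blvrb separate the groups, and the 2 NEKO males stand above the 2 NEKO females for Blvrb.

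Promoter sequence is shown for Tfrc and Blvrb, which separated the groups, and for Blvra, the 1 searched gene with an antioxidant motif. The windows are those of RefSeq on GRCm38.p6, which cover 250 bases before and 50 bases after a transcript start. Of the 10 genes, 7 had 13 such windows, while Hmox1, Slc40a1 and Fech had none and were not searched. Each of the 13 windows was searched on both strands for the core of the antioxidant response element through which Nrf2 acts (TGACNNNGC). The core of the hypoxia response element (ACGTG) was sought in the same way. The antioxidant core was found in 1 window, that of Blvra, and 12.4% of all 32851 promoter windows held it. The hypoxia core was found in 3 windows, of which 2 were overlapping windows of Tfrc that hold the same site and 1 was the window of a second Blvrb start, and 19.6% of all windows held it. No window of the 10 genes held both motifs. A match is a description of the letters and not a bound site. The stretches below run 5′ to 3′ on the plus strand, on which all 3 genes are transcribed. They stand at chr16:32608646-32608898 for Tfrc, chr7:27447728-27447977 for the first start of Blvrb and chr2:127070407-127070656 for Blvra. Capitals mark the hypoxia core that spans the Tfrc start, from 2 bases before it to base 3, and the antioxidant core of Blvra, which lies on the opposite strand from position -49 to -41. The Blvrb stretch holds neither and is in lower case throughout.
Tfrc: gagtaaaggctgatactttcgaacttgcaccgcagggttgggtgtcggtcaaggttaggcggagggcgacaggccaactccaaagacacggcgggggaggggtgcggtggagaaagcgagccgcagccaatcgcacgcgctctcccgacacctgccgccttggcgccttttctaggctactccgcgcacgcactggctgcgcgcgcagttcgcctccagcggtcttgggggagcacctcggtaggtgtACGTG
Blvrb: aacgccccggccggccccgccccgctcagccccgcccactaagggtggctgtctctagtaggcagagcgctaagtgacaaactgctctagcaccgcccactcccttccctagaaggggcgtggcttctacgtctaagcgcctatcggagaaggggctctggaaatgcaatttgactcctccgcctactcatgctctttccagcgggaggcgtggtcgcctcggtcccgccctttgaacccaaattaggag
Blvra: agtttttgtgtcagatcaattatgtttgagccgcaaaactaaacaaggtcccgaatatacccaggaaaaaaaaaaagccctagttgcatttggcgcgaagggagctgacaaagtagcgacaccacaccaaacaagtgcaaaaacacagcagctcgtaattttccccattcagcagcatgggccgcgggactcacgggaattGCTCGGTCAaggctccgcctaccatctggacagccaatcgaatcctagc

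Heme oxygenases, which open the heme ring, were measured first. Hmox1, the inducible form, was at log2 levels of 1.44, 1.55, 1.84 and 1.86 in control mice 1, 4, 7 and 8. It was at 1.28, 1.30, 1.75 and 2.05 in NEKO mice 2, 3, 5 and 6. The lowest levels were those of the 2 NEKO females and the highest that of a NEKO male, so the groups overlapped. The fitted log2 change was -0.08 (SE 0.16, 95% interval -0.47 to 0.31, limma adjusted p = 0.819), and the exact permutation test gave p = 0.714 (two-sided). The change was -0.36 within females and 0.21 within males, and the test of that difference gave an adjusted p = 0.541 in limma.

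Hmox2, the constitutive form, lay between 3.30 and 3.59 in controls and between 3.27 and 3.41 in NEKO mice. Its fitted change was -0.12 (95% interval -0.32 to 0.08, limma adjusted p = 0.475). The 4 NEKO levels were thus all within or just below the narrow control range.

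The biliverdin reductases act next, on the product of the oxygenases. Blvra, which makes the main form of bilirubin, was at 2.51 to 2.98 in controls and 2.60 to 2.97 in NEKO mice. Its change was 0.02 (95% interval -0.22 to 0.26, limma adjusted p = 0.915). Its promoter window, shown above, is the one with the antioxidant core. Blvrb, which also reduces flavins and is abundant in red cells, was at 0.28, 0.49, 0.84 and 0.46 in control mice 1, 4, 7 and 8. In NEKO mice it was at 1.25 and 1.22 in the 2 females (2 and 3) and at 3.60 and 4.01 in the 2 males (5 and 6). Every NEKO mouse lay above every control, and the NEKO males lay far above the NEKO females. The mean log2 level was 0.52 ± 0.23 (SD, n = 4) in controls and 2.52 ± 1.49 (SD, n = 4) in NEKO mice.

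The fitted change of Blvrb was 2.00 (SE 0.45, 95% interval 0.95 to 3.06), a 4.00-fold difference, with a limma adjusted p = 0.114. The exact permutation test gave p = 0.0286 (two-sided), the smallest that 4 mice against 4 allow. The change was 2.28 larger on the log2 scale in males than in females (SE 0.26), with an unadjusted p = 0.000104 and an adjusted p = 0.0729 in limma. None of the 10 genes passed the adjusted threshold for such a difference, beside 0.0147% of all named genes. At an unadjusted p under 0.05, 3 of the 10 (Blvrb, Ftl1 and Slc40a1) did, beside 11.1% of all named genes. A model that gave each sex its own effect and averaged the 2 left Blvrb with the same change and a limma adjusted p = 0.00364. Macrophage markers also had a larger median change in males: over 14 tested genes it was -0.27 in females and 0.78 in males. The lowest adjusted p for a difference between the sexes among these markers was 0.13 in limma, for Laptm5. The Nrf2 check genes had larger changes in males too. Nqo1, Srxn1, Gclc, Txnrd1 and Gclm had changes of 1.69, 0.82, 0.34, 0.98 and 0.39 in females. In males these were 3.55, 2.12, 1.55, 1.62 and 0.75, and no difference passed the adjusted threshold. The part of macrophages or of Nrf2 activity in the change of Blvrb was not tested.

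**Figure D2:**
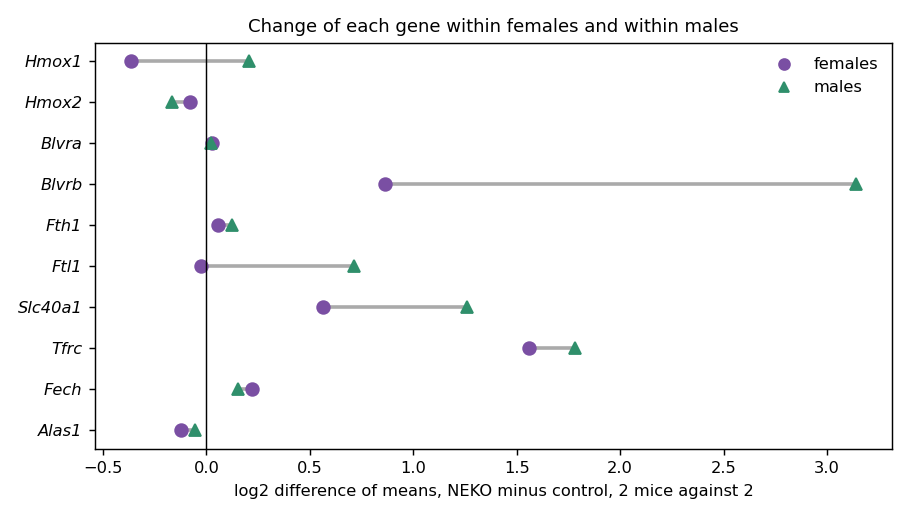
Log2 difference of means, NEKO minus control, within females (circles, 2 against 2 mice) and within males (triangles, 2 against 2 mice) for the 10 genes. Blvrb has the widest gap, 0.86 in females and 3.14 in males, while the 2 values of Tfrc, 1.56 and 1.78, lie close together.

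The ferritin chains build the shell that stores iron, with Fth1 oxidising it and Ftl1 aiding its deposition. Ferritin genes have many processed copies in the genome, and cross-hybridisation of the probes with them was not tested. Fth1 was at 8.04 to 8.37 in controls and 8.19 to 8.50 in NEKO mice. Its change was 0.09 (95% interval -0.09 to 0.27, limma adjusted p = 0.557). The highest 2 of the 8 mice were the NEKO males, and the groups overlapped.

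Ftl1 was at 7.34 and 7.13 in the control females (1 and 8) and at 6.95 and 6.88 in the control males (4 and 7). It was at 7.02 and 7.39 in the NEKO females (2 and 3) and at 7.70 and 7.57 in the NEKO males (5 and 6). The NEKO males were thus the highest of the 8 mice and the control males the lowest, while the females of both groups overlapped. The change over all mice was 0.34 (95% interval -0.07 to 0.75, limma adjusted p = 0.341). It was -0.03 in females and 0.72 in males, a difference of 0.74 with an unadjusted p = 0.0143 and an adjusted p = 0.289 in limma.

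Slc40a1 encodes ferroportin, the known cellular iron exporter. It was at 2.28, 2.08, 1.62 and 2.25 in control mice 1, 4, 7 and 8. It was at 2.82, 2.84, 3.12 and 3.10 in NEKO mice 2, 3, 5 and 6. The 4 NEKO levels were close to each other and all above the controls, of which male 7 was the lowest. The means were 2.06 ± 0.30 (SD, n = 4) and 2.97 ± 0.16 (SD, n = 4).

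The fitted change of Slc40a1 was 0.91 (SE 0.17, 95% interval 0.52 to 1.31), a 1.88-fold difference, with a limma adjusted p = 0.0779. The exact permutation test gave p = 0.0286 (two-sided). The change was 0.57 in females and 1.26 in males, and the difference of 0.69 had an unadjusted p = 0.0207 and an adjusted p = 0.331 in limma. With the effect averaged over the sexes in a model that let it differ between them, the limma adjusted p of Slc40a1 was 0.0186.

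Tfrc encodes the receptor that brings transferrin-bound iron into the cell. It was at 0.22, 0.79, 0.57 and 0.30 in control mice 1, 4, 7 and 8. It was at 1.57, 2.08, 2.54 and 2.38 in NEKO mice 2, 3, 5 and 6. The lowest NEKO mouse was above the highest control by more than the whole range of the controls. The means were 0.47 ± 0.26 (SD, n = 4) in controls and 2.14 ± 0.43 (SD, n = 4) in NEKO mice.

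The change of Tfrc was 1.67 (SE 0.13), with a limma adjusted p = 0.0075 over all genes and transcripts tested, and the exact permutation test gave p = 0.0286 (two-sided). It was 1.56 in females and 1.78 in males, a difference of 0.22 with an adjusted p = 0.846 in limma. Tfrc was called in each of the 8 fits that left out 1 mouse, with changes between 1.59 and 1.79 and limma adjusted p between 0.00426 and 0.0452. The methods' t-test, which allows unequal variances, gave an unadjusted p of 0.0012 and 0.269 after adjustment, where 0 genes in all were called higher. In whole kidney, a higher number of cells that express a gene and more RNA per cell cannot be told apart.

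**Figure D3:**
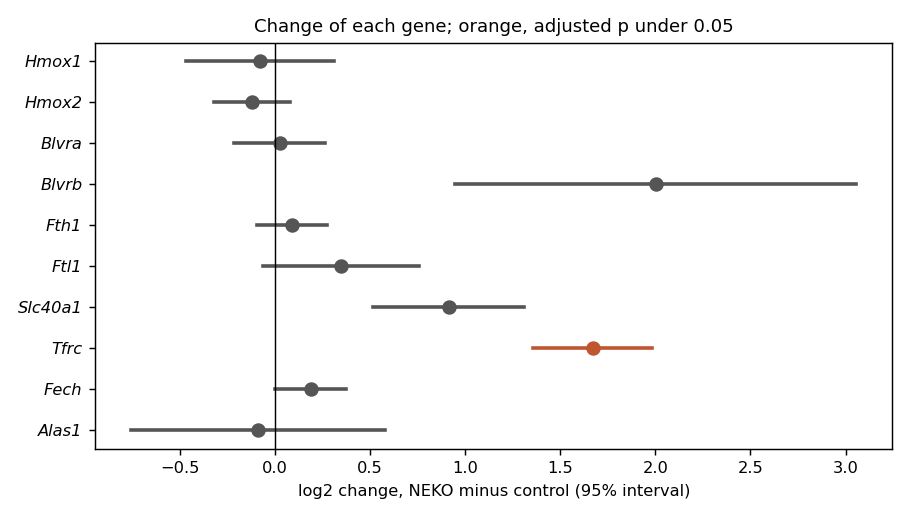
Fitted log2 change, NEKO minus control, of the 10 genes with its 95% interval from limma (points and bars, 4 against 4 mice), with the called gene in orange. The interval of Tfrc runs from 1.36 to 1.98, those of Slc40a1 and Blvrb lie above 0 without passing the adjusted threshold, and the other 7 include 0.

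Heme synthesis was represented by its first and last enzymes. Alas1, the housekeeping form of the rate-limiting enzyme, was at 4.59, 4.48, 5.21 and 5.18 in control mice 1, 4, 7 and 8. It was at 4.20, 5.32, 4.78 and 4.80 in NEKO mice 2, 3, 5 and 6. The lowest and the highest of the 8 mice were both NEKO females. The change was -0.09 (95% interval -0.76 to 0.58, limma adjusted p = 0.885), and the second Alas1 probe gave -0.20.

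Fech encodes ferrochelatase, which inserts iron into the ring. It was at 3.04 to 3.46 in controls and 3.24 to 3.68 in NEKO mice, and its groups overlapped. The change was 0.19 (95% interval -0.00 to 0.38, limma adjusted p = 0.279), and the second probe also gave 0.19. It was 0.22 in females and 0.15 in males.

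The remaining enzymes of heme synthesis were read from a list of 9 that includes Alas1 and Fech, and none was called. Alad, Uros, Urod, Cpox and Ppox, which act between the first and last steps, had changes of -0.15, -0.27, -0.06, 0.11 and 0.20, with limma adjusted p of 0.357 or more. Alas2, the form of red cell precursors, was at -0.96, 1.08, 2.09 and 0.51 in control mice 1, 4, 7 and 8. In NEKO mice 2, 3, 5 and 6 it was at 1.01, 1.50, 4.46 and 1.86. NEKO mouse 5 stood apart, and the other 3 NEKO mice lay within the range of all controls. Within females, however, both NEKO mice (2 and 3) lay above both controls (1 and 8). NEKO male 6 lay between control males 4 and 7. The change was 1.52 (95% interval 0.09 to 2.95, limma adjusted p = 0.256). It was 1.474 in females and 1.575 in males.

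The other genes of heme and iron handling, without the 10 genes above, numbered 58, of which 52 were tested. None was called, where 0.28% of all named genes were called in either direction. At an unadjusted p under 0.05 in limma, 13 of the 52 were higher, where 8.14% of all named genes were, and 2 were lower, where 10.2% were. In 4 of the 52, all higher, the groups did not overlap, where 9.58% of all named genes did not overlap in either direction. The median log2 change of the 52 was 0.12. Hpx, Steap3, Hamp and Hjv were not well above background on any array, Steap4 was on 1, and Hephl1 had no named probe.

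Among genes of heme transport and scavenging, 15 of 16 were tested and their median change was 0.26. Pgrmc1, a membrane protein that binds heme, was at 4.57, 3.99, 4.40 and 4.51 in control mice 1, 4, 7 and 8 and at 4.92, 4.98, 5.36 and 5.81 in NEKO mice 2, 3, 5 and 6. All NEKO mice were above all controls, and the males were the highest, with a change of 0.90 (95% interval 0.36 to 1.43, limma adjusted p = 0.139). The groups did not overlap for Slc48a1 either, a carrier that moves heme out of lysosomes, with a change of 0.38 (limma adjusted p = 0.197). It was named after its values were seen. Cd163 and Lrp1, receptors for hemoglobin bound to haptoglobin and for heme bound to hemopexin, had changes of 0.90 (95% interval -0.09 to 1.88) and 0.59 (95% interval 0.02 to 1.16), with limma adjusted p of 0.311 and 0.268. Cd163 was well above background in 3 of the 4 controls, and its change was 0.52 with normexp correction and 0.58 without NEKO mouse 6.

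Iron uptake and reduction had 13 tested genes of 15, with a median change of 0.11. Tfr2, the second transferrin receptor, which senses iron, was well above background in 3 controls and all 4 NEKO mice. Its change was 1.07 (95% interval 0.08 to 2.05, limma adjusted p = 0.248), or 0.58 with normexp correction, and its groups overlapped. Slc25a37, the mitochondrial iron importer mitoferrin, had a change of 0.77 (limma adjusted p = 0.209) and was at 3.11 in NEKO mouse 5, the mouse that was also highest for Alas2. Without that mouse the change of Slc25a37 was 0.48. Lcn2, which binds iron-carrying siderophores and marks injured tubule, had a change of 0.73 (limma adjusted p = 0.212), or 0.44 with normexp correction. The 2 genes that were lower at an unadjusted p under 0.05, named here after their values were seen, were the metal importer Slc39a14 and the lipocalin receptor Slc22a17, with changes of -0.57 and -0.32 and limma adjusted p of 0.171 and 0.278.

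Storage, export and regulation had 17 tested genes of 20, with a median change of 0.19. Hamp2, a paralog of the iron hormone hepcidin, was at -3.83, -4.05, -4.32 and -4.39 in control mice 1, 4, 7 and 8. It was at -3.21, -3.42, -2.92 and -2.81 in NEKO mice 2, 3, 5 and 6. All NEKO mice lay above all controls, with a change of 1.06 (95% interval 0.66 to 1.46, limma adjusted p = 0.064). With normexp background correction the change of this dim probe was 0.62 and its limma adjusted p was 0.0427.

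Epas1, the hypoxia-inducible factor that is known to drive erythropoietin, was named after its values were seen, as its groups did not overlap. It was at 4.41 to 4.84 in controls and 5.07 to 5.25 in NEKO mice, a change of 0.48 (95% interval 0.23 to 0.74, limma adjusted p = 0.115). Heph, a ferroxidase that works beside ferroportin, had a change of 0.73 (limma adjusted p = 0.197). Epo, the hormone of red cell production, was well above background in 1 control and in 3 NEKO mice. It was at -6.48, -6.38, -6.15 and -5.04 in control mice 1, 4, 7 and 8 and at -6.42, -4.27, -1.04 and -2.58 in NEKO mice 2, 3, 5 and 6. The 2 NEKO males were the highest and NEKO female 2 lay within the control range. The change was 2.44 (95% interval 0.18 to 4.69, limma adjusted p = 0.25), and 1.19 with normexp background correction.

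**Figure D4:**
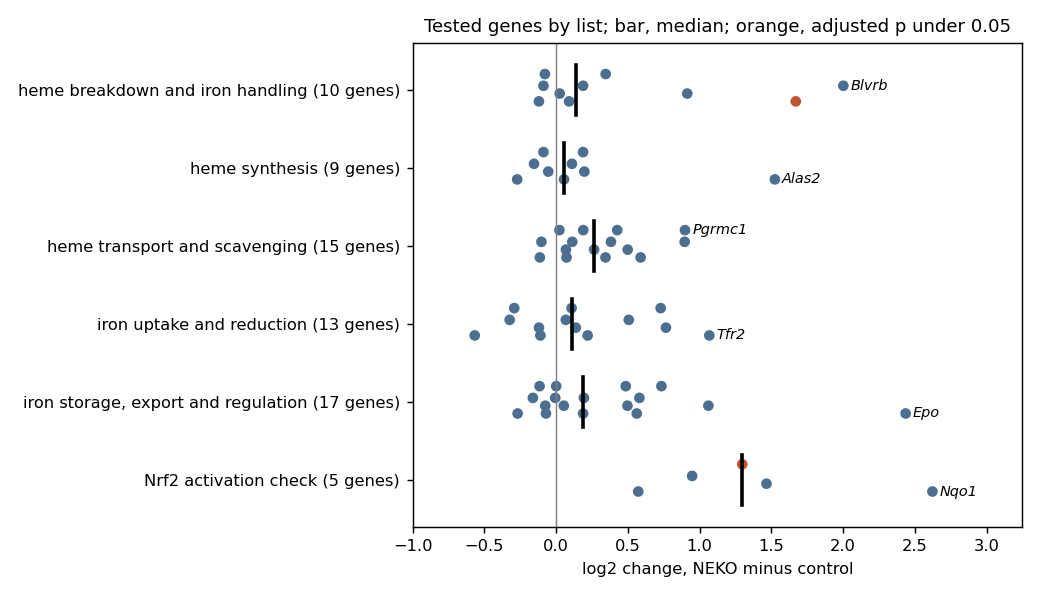
Fitted log2 change, NEKO minus control, of each tested gene of the heme and iron lists and of the Nrf2 check list (points), with the median of each list as a bar, called genes in orange and the gene with the highest change named. The 4 lists of other heme and iron genes hold no called gene, and their medians lie between 0.05 and 0.26. Alas1 and Fech are drawn both among the 10 genes and in heme synthesis.

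Kidney holds blood and resident immune cells, and Tfrc, Blvrb and Slc40a1 are also expressed in red cell precursors or macrophages, so the markers of these cells are given beside them. Of 12 erythroid markers, which include Alas2, 7 had a named probe and 4 were tested, none of them called. Probes of Hba-a1 and Hbb-bt cannot be assumed to tell the near-identical globin copies apart. The mean level of the 4 tested markers was 1.79 to 3.87 in controls and 2.92 to 5.53 in NEKO mice, the highest being NEKO mouse 5. Hba-a1 was at 8.16 in that mouse and at 4.73 to 7.26 in controls. Epb42 and Rhag, which mark red cell membranes, were well above background only in NEKO mouse 5.

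The other 3 NEKO mice, 2, 3 and 6, had mean erythroid marker levels of 2.92, 3.15 and 3.30 and Tfrc levels of 1.57, 2.08 and 2.38. Mean erythroid marker levels were 1.79 and 2.55 in control females 1 and 8, below both NEKO females (2 and 3). They were 3.20 and 3.87 in control males 4 and 7. The median change of the 4 tested markers was 0.99 in females and 0.79 in males. Without NEKO mouse 5 the change of Tfrc was 1.61 (limma adjusted p = 0.04), that of Slc40a1 was 0.84 and that of Blvrb was 1.86. The part of red cells in these values was not tested.

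Of 15 macrophage markers, 14 were tested and none was called, with a median change of 0.21. Their mean level was -1.59 to -0.96 in controls and -1.60 to -0.40 in NEKO mice. NEKO male 5, at -1.24, lay within the range of all controls but above control males 4 and 7, at -1.59 and -1.49. NEKO mouse 6 was the highest. Without that mouse the change of Slc40a1 was 0.85 and that of Blvrb was 1.69. The change was larger in males than in females for 13 of the 14, the exception being Csf1r (0.29 in females, -0.67 in males). It was above 0 for 3 of them in females and for 12 in males. Lyz2, a lysozyme of macrophages and neutrophils, had the largest change of these markers, 1.38 (limma adjusted p = 0.272), and 0.91 without NEKO mouse 6. It was at -1.79 and -0.75 in NEKO males 5 and 6 and at -3.05 or lower in the other 6 mice. Its change was 0.08 in females and 2.67 in males, as Blvrb, Slc40a1 and Ftl1 also had their larger change in males, and the test of the difference gave a limma adjusted p = 0.2. The part of macrophages in these values was not tested.

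Markers of the kidney's own cells were also read. The 10 proximal tubule markers had a median change of 0.05, with a mean level of 5.58 to 5.74 in controls and 5.77 to 5.91 in NEKO mice, so that these means did not overlap. The mean of the thick ascending limb markers was 4.30 to 4.64 in controls and 3.90 to 4.53 in NEKO mice, that of the podocyte markers was 0.05 to 0.80 and -0.37 to 0.35, and that of the injured tubule markers was -1.08 to -0.41 and -0.55 to -0.15. Medians were -0.23 for 5 thick ascending limb markers, -0.20 for 5 collecting duct markers, 0.22 for 5 podocyte markers and 0.11 for 7 markers of injured tubule, and no gene of these lists was called. The injured tubule markers, Lcn2 among them, went both ways, with 4 fitted higher and 3 lower. Sox9, Krt20 and Clu had the largest changes, 1.65, 1.37 and -0.85 (limma adjusted p of 0.144, 0.202 and 0.129). Sox9 was well above background in 3 of the 4 controls. Among the podocyte markers, Synpo, an actin-binding protein, had a change of -2.45 (unadjusted p = 0.0127, adjusted p = 0.18 in limma). Under the other settings that kept all mice, the change of Synpo ran from -2.45 to -1.07. The part of these kidney cells in the changes of the 10 genes was not tested.

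**Figure D5:**
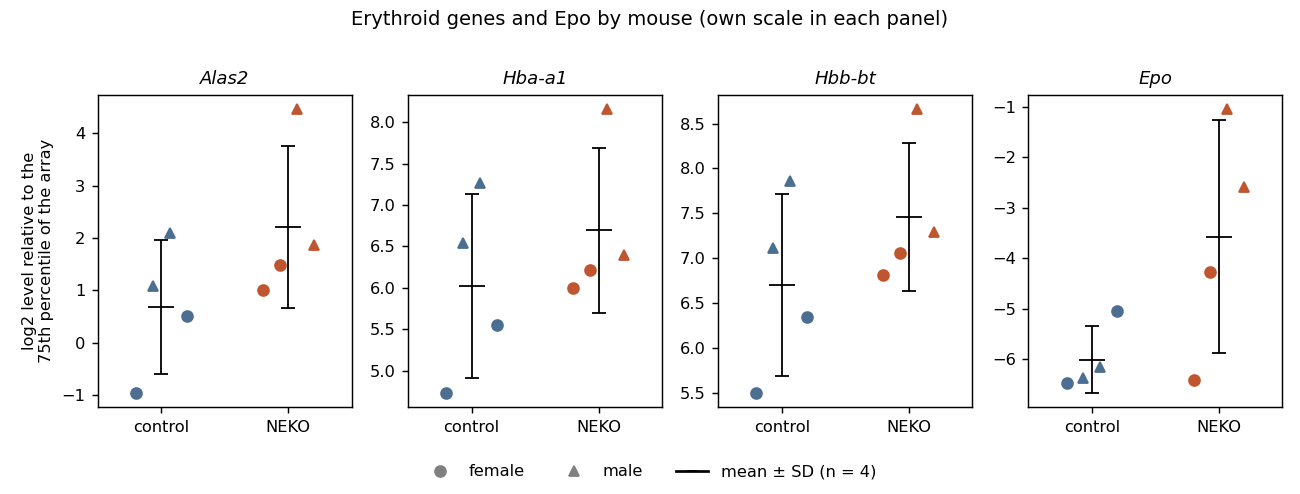
Log2 level of the erythroid genes Alas2, Hba-a1 and Hbb-bt and of Epo in the 8 kidneys, scaled to each array's 75th percentile, drawn as in the plot of the 10 genes but with its own scale in each panel. NEKO mouse 5 is the highest mouse in all 4 panels, with 4.46 for Alas2, 8.16 for Hba-a1, 8.66 for Hbb-bt and -1.04 for Epo.

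The genes whose levels ran most like those of Tfrc were sought among 13519 named genes, a count that includes Tfrc. The measure was the root mean square of the difference between profiles over the 8 arrays, each centred on its own mean. Gdf15, a stress-induced cytokine, was the nearest, at 0.25 on the log2 scale. Slc24a5, a cation exchanger, followed at 0.26 and Txnrd1, the thioredoxin reductase of the Nrf2 check list, at 0.27. Gdf15 had a change of 1.69 (limma adjusted p = 0.0412), a call that was lost under 10 of 21 other settings, and Slc24a5 one of 1.69 (limma adjusted p = 0.0611). The measure rests on the same 8 arrays as the changes and is a description.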

How the data were processed

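The authors deposited Agilent Feature Extraction 10.7.3.1 output for each of the 8 arrays, with spot intensity values and flags, and a matrix of log2 values, which match log2 processed signals scaled to each array's 75th percentile and centred per probe. Outlier spots were left out (73 to 172 of 43379 non-control spots per array), spots of a probe were averaged, and each array's 75th percentile over non-control probes was subtracted on the log2 scale. Probes were named through RefSeq (GRCm38.p6) accessions: 18217 genes were named by 26690 of 41174 probes. Array coordinates are on another build and are not printed. Probes were kept if well above background on at least 4 arrays, with values on at least 6, and the brightest kept probe stood for a gene. This left 13570 named genes and 6023 unnamed transcripts, 19593 in all.

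limma 3.58.1 (R 4.3.3) (lmFit, eBayes) modelled genotype and sex, with Benjamini-Hochberg adjustment over all 19593. A second model added the interaction of sex and genotype. Exact permutation tests of single genes compared all divisions of the 8 mice. On simulated data of 19514 genes made from these arrays for this comparison (200 changed, 5 runs), the same fit found 68.2% of the 2-fold changes and 90.6% of the 4-fold ones, and 4.91% of its calls were wrong. The 10 genes, the other lists and the tests were chosen with earlier results of these data known. Named in the text are the 10 genes, the heme synthesis enzymes, the 3 genes with the largest change of each other heme or iron list, the check and marker genes, and the 3 genes nearest to Tfrc. Values of 2 listed genes are not reported here. Alternatives were normexp correction, quantile and median scaling, other filters, the mean of probes, models without sex, with slide as a random block or with the interaction, trend and robust variance priors, the methods' t-test, the deposited matrix, and leaving out each mouse.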

Additional observations from a re-analysis of the deposited data

Results flagged for a closer look

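Levels within each group of 4 mice were searched for a mouse that lay far from the other 3, by the gap to the nearest mouse as a share of the group's range. Of 104 groups looked at, 4 exceeded Dixon's critical value for 4 samples, and chance gives about 1 in 20. None was a group of the 10 heme and iron genes.

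Of the Nrf2 check genes, Nqo1 was at 1.24 in control male 4 and at 2.35 to 2.46 in the other controls (share 0.91). Srxn1 was at 2.76 in the same mouse and at 3.27 to 3.36 in the other controls (share 0.846). Of the kidney cell markers, Aqp2 was at 3.37 in NEKO male 6 and at 3.70 to 3.75 in the other NEKO mice (share 0.854). Synpo was at 3.09 in NEKO male 5 and at 1.58 to 1.77 in the other NEKO mice (share 0.875).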

How the results depend on the processing

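Of the 10 genes, Tfrc was called higher (1 gene) and none lower. With the effect averaged over the sexes in the interaction model 3 were higher (Tfrc, Slc40a1 and Blvrb), by the methods' t-test without adjustment 2 (Tfrc and Slc40a1) and with adjustment 0, where Tfrc had an adjusted p of 0.269. Every fit without 1 mouse gave 1. None of the 10 differed between the sexes, except Blvrb (1 gene) with normexp correction (limma adjusted p = 0.0454) and with trend and robust priors (0.0441). Over all named genes 15 were called higher and 23 lower, beside 56 and 79 with normexp correction, 6 and 12 with probes detected on all 8 arrays, 9 and 14 without sex, 204 and 208 averaged over the sexes, 34 and 42 with trend and robust priors, 743 and 882 by the methods' t-test without adjustment, 0 and 1 with it, and 8 to 19 and 7 to 18 without 1 mouse. Directions turned in some fits without 1 mouse for 3 small changes, whose log2 changes then ran from -0.31 to 0.14 for Alas1, -0.047 to 0.10 for Blvra and -0.19 to 0.0615 for Hmox1. In these the cause was not tested. The call of Txnrd1 was lost under 14 and that of Gdf15 under 10 of 21 alternatives. No paired analysis was possible because the replicate numbers run over both groups and none is shared. Dim probes such as those of Epo, Hamp2, Tfr2 and Cd163 are measured close to background, and their changes were smaller with normexp correction. That correction added an offset of 50 to every signal, which by itself shrinks log2 changes of dim probes.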
